A study of Xenopus tropicalis with 18 samples.

Results

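The gene thrb encodes thyroid hormone receptor β (TRβ), and thyroid hormone receptor (TR) signal at its own locus was counted over 3 of the 9867 regions that the authors listed for the tadpole intestine. The 3 regions were taken by their start positions on chromosome 6 and are called A, B and C here in the order of their coordinates. With 10 nM of the hormone T3 for 18 h, signal rose at all 3 regions in wild type (WT) and in the TRβ knockout (TRβKO), and at B and C in the TRα knockout (TRαKO). Region A did not pass the test in TRαKO. Region B had deposited peaks only in libraries with T3, so its T3 tests are not separate from how it was found. By the test of the difference itself, the T3 effect was smaller in TRαKO than in WT at all 3 regions and smaller in TRβKO than in WT at A and C, while the difference at B did not pass. Levels with T3 did not differ past the threshold between TRβKO and WT by the same edgeR fit at any of the 3 regions. Per kept tag the groups did not overlap at B and C, however, and DESeq2 called TRβKO higher at B. How many of all tested regions lack overlap was not counted. At C the log2 difference was −0.31 in the edgeR fit and 0.01 in DESeq2. Without T3, TRβKO stood higher than WT at A and C. Untreated TRαKO was called higher than WT at all 3 regions, though these calls depended on single libraries. The untreated knockouts did not differ from each other past the threshold.

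TRs are nuclear receptors that sit on DNA, mostly as heterodimers with retinoid X receptors, both with and without hormone. Without hormone they recruit corepressor complexes with histone deacetylase activity, and T3 exchanges these for coactivators. In frogs thrb is a classic direct target of T3: its promoter region carries a thyroid hormone response element, and its transcript rises with the hormone during metamorphosis, when the larval intestine is remodelled. TRα, encoded by thra, is the receptor that premetamorphic tadpoles already express widely.

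TR-bound chromatin from Xenopus tropicalis intestine was sequenced after immunoprecipitation with an antibody described only as one to TR, and which TR it binds is not stated. The tadpoles were at stage 54 and were WT, TRαKO or TRβKO, each without T3 or with 10 nM T3 for 18 h. These 6 groups have 3 libraries each, which the series describes as biological replicates and which add up to 18. The labels give neither the alleles nor how many animals went into a library, and the series description names the first knockout TRαLKO where the labels have TRαKO. Reads at thra and thrb do not report on the deletions, so the genotypes were not checked by the targeted gene, and the tissue label cannot be checked against marker transcripts in chromatin data. No input library was used here.

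Depth differed between the groups along with the treatment. Tags kept after the duplicate filter ranged from 12.4 to 17.1 M in untreated WT, 2.29 to 2.53 M in WT with T3, 7.49 to 9.28 M in untreated TRαKO, 6.03 to 8.02 M in TRαKO with T3, 5.22 to 5.8 M in untreated TRβKO and 2.76 to 3.28 M in TRβKO with T3. Redundant tags made up 2.2% to 2.97% of untreated WT libraries and 21.4% to 22.4% of WT libraries with T3, and between 7.57% and 16.2% of the others. Fewer cells with bound receptor and less bound receptor per cell cannot be told apart in whole tissue. The level of the median counted region lay between 1.38 and 1.95 reads per M kept tags (CPM) in all 6 groups, which is the level against which the values at thrb can be read.

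The positions follow the authors' coordinates, whose genome build is not named in the sources used here. Region A spans positions 46698245 to 46698759 of chromosome 6, region B 46899379 to 46899872 and region C 46932899 to 46933467, so that their widths are 515, 494 and 569 bp. A and B are 200.62 kb apart, B and C 33.027 kb. With the gene spans of the UCB_Xtro_10.0 annotation, A and B lie inside thrb and C lies across its higher-coordinate end. The next annotated genes are nr1d2 on the lower side, followed by rpl15 and nkiras1, and several uncharacterised LOC genes and then rarb, a retinoic acid receptor, on the higher side. Exons, introns and strand are not stated here.

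Region C had a deposited peak in 12 of the 18 libraries, region A in 14 and region B in 9. Summits lay close together from library to library. The 9 summits in region B fell between 46899613 and 46899644, within 31 bp of each other, and the 12 in region C between 46933155 and 46933206, within 51 bp. The 14 summits in region A were spread over 147 bp, from 46698407 to 46698554. All 35 peaks lay wholly inside their counted region, whose bounds match those of these same peaks, so their summits had to lie inside too.

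With T3 in WT, all 3 thrb regions rose, with the largest estimate at region C. At C the untreated libraries held 2.78, 2.28 and 1.38 CPM (replicates 1 to 3) and the T3 libraries 41.0, 39.9 and 39.8 CPM. The libraries with T3 lay close together and wholly above the untreated ones. Replicate 3 of untreated WT stood apart at C, with 17 reads against 38 and 39 in the other libraries of its group, while it held more reads than they did at A and B.

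At B, WT went from 0.804, 0.701 and 1.46 CPM to 14.5, 13.4 and 13.1 CPM. At A it went from 1.90, 1.64 and 2.75 CPM to 13.7, 19.0 and 14.0 CPM. Neither region's groups overlapped, and untreated region B lay below the median counted region of its libraries. Here and below, how many of all tested regions have groups without overlap was not counted. The log2 fold changes in edgeR's quasi-likelihood test were 4.20 ± 0.21 (SE, adjusted p = 1.42e-31) at C, 3.80 ± 0.31 (adjusted p = 1.60e-18) at B and 2.90 ± 0.28 (adjusted p = 3.61e-15) at A, with n = 3 against 3. These correspond to 18.4-fold (95% interval 13.9 to 24.5), 14.0-fold (9.06 to 21.5) and 7.47-fold (5.07 to 11). All 3 of 3 thrb regions were called higher, where 10.2% of the 9342 tested regions were, and the median tested region changed by 0.02 on the log2 scale. The call at B is not independent support, since B was found through peaks of libraries with T3 alone. By size of the rise in WT, C was in place 128, B in place 267 and A in place 668 of 9342.

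The difference in depth bears on these levels. Region C held more reads in every WT library with T3 (91 to 102) than in any untreated one (17 to 39), although the T3 libraries were the shallower ones, and region B did too (30 to 36 against 11 to 18). Region A did not: it held 32 to 48 reads with T3 and 26 to 34 without, ranges that overlap, so that its rise appears only per tag. After thinning every library to the depth of the shallowest, the WT effects were 4.46 at C, 4.35 at B and 2.80 at A, each still called. Thinning keeps the expected reads per tag, so it equalizes counting precision and does not test what depth or redundancy did to the levels. Scaling by total reads in counted regions gave the lowest WT effects of all settings. They were 3.66 at C, 3.26 at B and 2.36 at A, each also called.

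**Figure D1:**
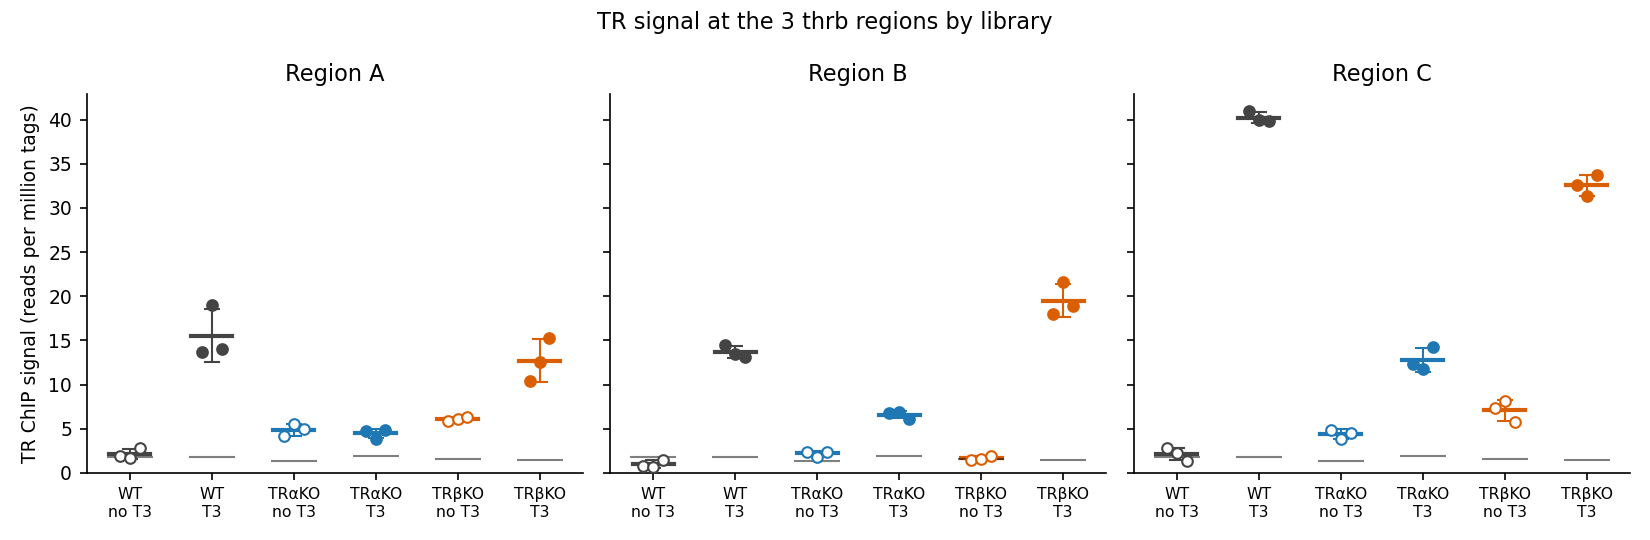
TR ChIP signal in CPM, reads per M kept tags (y axis), at thrb regions A, B and C, by genotype and treatment (x axis). Points are libraries (open without T3, filled with T3), bars the mean ± SD of 3 libraries, and thin grey lines the mean over libraries of the median counted region; region C reaches 40.2 CPM in WT with T3 and 12.8 CPM in TRαKO with T3.

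In TRαKO regions B and C rose with T3, and region A did not pass the test. Region A held 4.12, 5.49 and 4.94 CPM without T3 and 4.74, 3.81 and 4.81 CPM with it, ranges that overlap. Its log2 fold change was −0.13 ± 0.27 (edgeR adjusted p = 0.833), with a 95% interval from −0.67 to 0.42, or 0.627-fold to 1.33-fold. Region B went from 2.31, 1.83 and 2.40 CPM to 6.73, 6.91 and 6.14 CPM, and region C from 4.89, 3.77 and 4.54 CPM to 12.3, 11.7 and 14.3 CPM.

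At B and C every TRαKO library with T3 thus stood above every untreated one. The log2 fold changes were 1.60 ± 0.29 at B (edgeR adjusted p = 2.42e-05) and 1.54 ± 0.20 at C (edgeR adjusted p = 8.93e-09). So 2 of 3 thrb regions were called higher, against 8.6% of tested regions, with B again found through libraries with T3 alone. The median tested region itself stood 0.46 higher on the log2 scale with T3 in TRαKO, above the change at A. DESeq2, which differs from edgeR in its test as well as its size factors, called region A lower at −0.68 (DESeq2 adjusted p = 0.0488), and B and C higher at 1.06 and 0.99. With edgeR and TMM scaling region A was at −0.52 (adjusted p = 0.398).

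In TRβKO all 3 regions rose, with the largest estimate at B. Region B held 1.46, 1.55 and 1.92 CPM without T3, near the median counted region, and 18.0, 21.7 and 18.9 CPM with T3. Region C went from 7.31, 8.11 and 5.75 CPM to 32.6, 31.4 and 33.7 CPM. Region A went from 5.85, 6.04 and 6.32 CPM to 10.4, 12.5 and 15.2 CPM.

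The TRβKO groups did not overlap at A, B or C, which describes these libraries and was not set against all tested regions. The log2 fold changes were 3.56 ± 0.32 at B (edgeR adjusted p = 2.10e-16), 2.2 ± 0.20 at C (edgeR adjusted p = 4.93e-16) and 1.06 ± 0.27 at A (edgeR adjusted p = 0.00236), or 11.8-fold, 4.59-fold and 2.09-fold. All 3 of 3 regions were called higher, against 9.49% of tested regions with a median change of −0.16. Here too B counts as a region found through libraries with T3 alone. Region A lost its call when libraries were scaled by their total reads in counted regions (0.64, adjusted p = 0.0966), and its reads were 32 to 35 without and 30 to 42 with T3.

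Over the 3 genotypes together, an exact two-sided permutation of treatment within genotype gave a mean difference in log2(CPM + 0.5) of 2.64 at B and 2.52 at C, each with p = 0.00025, the smallest that 8000 arrangements can give. At region A the difference was 1.17 (exact permutation p = 0.004). The p at B is no separate support, as that region was found through peaks of libraries with T3 alone.

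**Figure D2:**
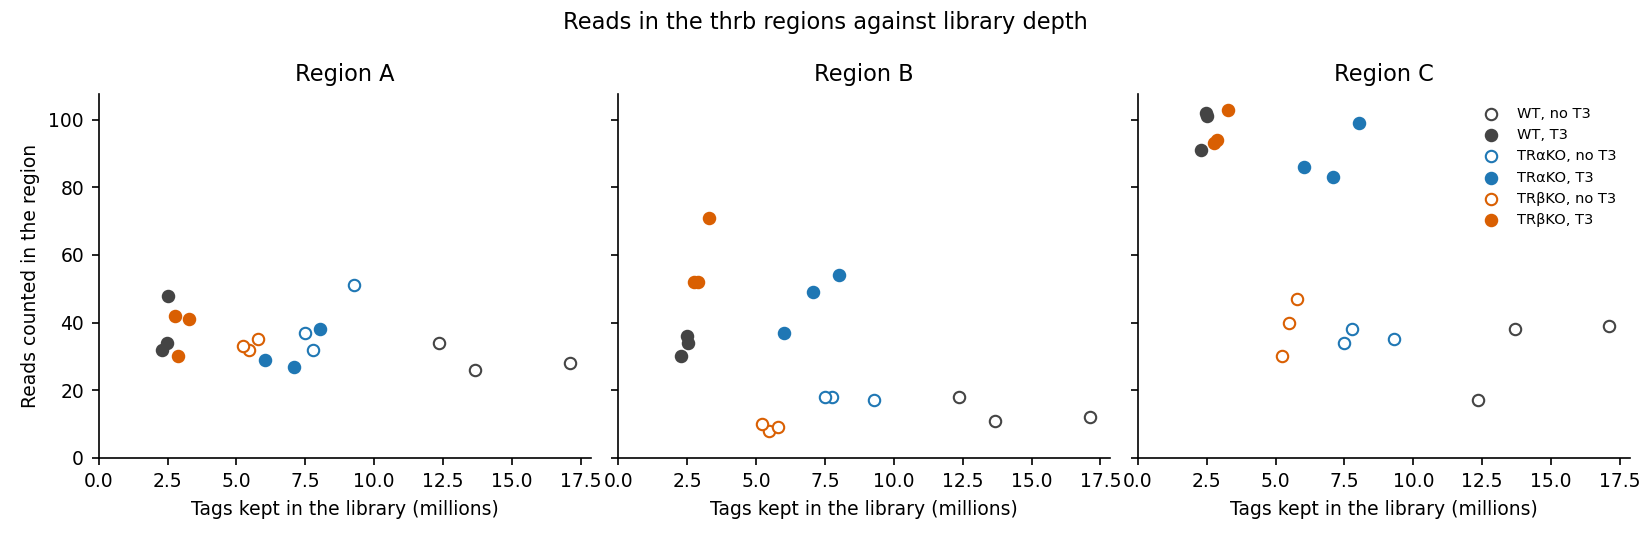
Reads counted in thrb regions A, B and C (y axis) against the tags kept in each library, in M (x axis), 1 point per library, coloured by genotype and filled with T3. Reads in region A stay between 26 and 51 across all depths, while the filled points of B and C stand above the open ones.

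The differences between the T3 effects were tested directly. The T3 effect was lower in TRαKO than in WT at all 3 thrb regions: the difference in log2 fold change was −3.03 ± 0.39 at A (edgeR adjusted p = 4.59e-09), −2.2 ± 0.44 at B (edgeR adjusted p = 0.000139) and −2.67 ± 0.29 at C (edgeR adjusted p = 1.83e-11). Only 5.18% of tested regions had a lower T3 effect called in this comparison, whereas 3 of 3 thrb regions did, and the value at A was in place 85 from the lowest of 9342. Region B is counted here although it was found through peaks of libraries with T3 alone. The median tested region differed by 0.36 the other way.

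TRβKO had smaller rises than WT at A (−1.84 ± 0.39, edgeR adjusted p = 0.00237) and C (−2.01 ± 0.29, edgeR adjusted p = 1.08e-06). At B the T3 effects of TRβKO and WT differed by −0.24 ± 0.46 (edgeR adjusted p = 0.876), with a 95% interval from −1.15 to 0.66. Of the thrb regions 2 of 3 were called lower, against 1.52% of tested regions. Whether B differed from A and C in this respect was not tested. The WT libraries are shared between these comparisons of TRαKO and TRβKO with WT.

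Between the knockouts, the T3 effect at B was 1.96 ± 0.45 higher on the log2 scale in TRβKO than in TRαKO (edgeR adjusted p = 0.00480), and 1 of 3 thrb regions was called, against 2.04% of tested regions. That call is at B, the region found through peaks of libraries with T3 alone. The differences at A (1.19 ± 0.39, edgeR adjusted p = 0.0640) and C (0.66 ± 0.29, edgeR adjusted p = 0.189) did not pass. Both passed with TMM scaling, at 1.52 (adjusted p = 0.0099) and 1.0 (adjusted p = 0.0324), and with DESeq2, at 1.60 and 1.07. The TRαKO libraries with T3 were deeper (6.03 to 8.02 M tags) than those of the other genotypes with T3, and the part of depth in these differences was not tested. Thinning the counts to equal depth keeps the expected reads per tag and so equalizes counting precision alone. Under it B stayed called at 2.32 while A (1.42) and C (1.13) did not pass.

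**Figure D3:**
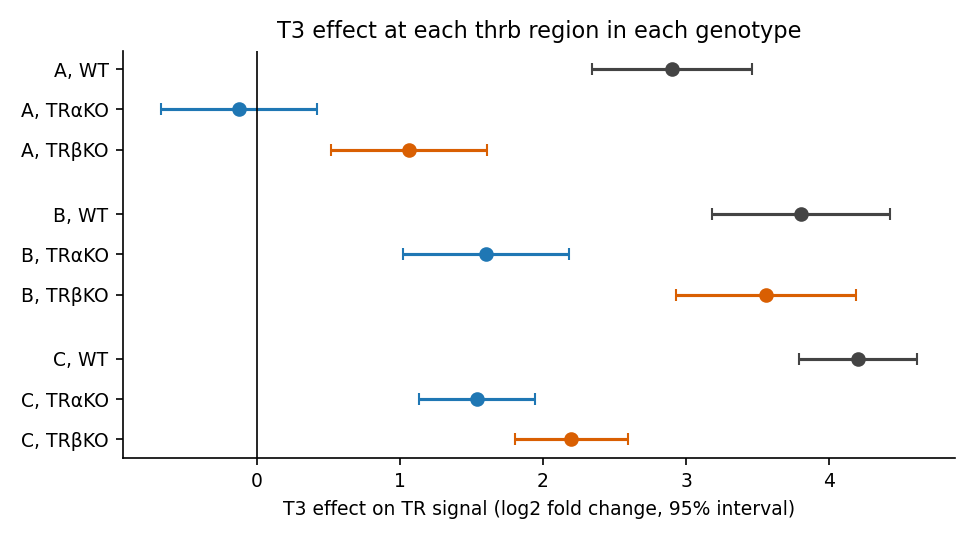
T3 effect on TR signal as log2 fold change (x axis) for each thrb region in each genotype (y axis), from edgeR. Points are estimates and whiskers 95% intervals; the interval of region A in TRαKO, −0.67 to 0.42, spans 0, and the other 8 lie above 0.

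Levels differed between genotypes before T3. Region C averaged 2.14 ± 0.711 CPM in WT (SD, n = 3), 4.40 ± 0.572 CPM in TRαKO and 7.06 ± 1.2 CPM in TRβKO, with no overlap between any of the groups. Region A averaged 2.1 ± 0.583, 4.85 ± 0.693 and 6.07 ± 0.238 CPM in the same order, also without overlap. Such lack of overlap was not counted over all tested regions, and the edgeR test did not call the knockouts different from each other at A or C. Region B stayed low in all 3 genotypes, at 0.987 ± 0.410, 2.18 ± 0.308 and 1.64 ± 0.240 CPM, and its knockout groups overlapped each other.

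Against untreated WT, untreated TRαKO was higher by 1.23 ± 0.28 at A (edgeR adjusted p = 0.00257), 1.16 ± 0.34 at B (edgeR adjusted p = 0.0444) and 1.01 ± 0.23 at C (edgeR adjusted p = 0.00294) on the log2 scale. Thus 3 of 3 thrb regions were called higher, against 1.65% of tested regions, whose median was −0.28. These calls depended on single libraries. The call at B was lost without any one of 5 of the 6 libraries, with values from 0.94 to 1.28, and in 4 of 9 other settings. That at A was lost without untreated WT replicate 2 (1.06, adjusted p = 0.0584) and after thinning (1.16, adjusted p = 0.161), and that at C without untreated WT replicate 3 (0.80, adjusted p = 0.0653).

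Untreated TRβKO was higher than untreated WT by 1.54 ± 0.28 at A (edgeR adjusted p = 0.000110) and 1.70 ± 0.23 at C (edgeR adjusted p = 4.19e-08). At B the difference was 0.76 ± 0.39 (edgeR adjusted p = 0.262), with a 95% interval from −0.02 to 1.54. So 2 of 3 thrb regions were called higher, against 2.07% of tested regions. The knockouts did not differ from each other past the threshold at any of the 3 regions without T3: TRβKO minus TRαKO was 0.32 at A (95% interval −0.22 to 0.86), −0.40 at B (−1.14 to 0.34) and 0.69 at C (0.25 to 1.13), with edgeR adjusted p from 0.190 to 0.770.

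With T3, TRαKO had the lowest level of the 3 genotypes at every thrb region. Region C averaged 40.2 ± 0.628 CPM in WT, 32.6 ± 1.17 CPM in TRβKO and 12.8 ± 1.33 CPM in TRαKO, with no overlap. Region A averaged 15.5 ± 2.98 CPM in WT, 12.7 ± 2.43 CPM in TRβKO and 4.45 ± 0.559 CPM in TRαKO, and its WT and TRβKO libraries overlapped. Region B had another order, with 19.5 ± 1.90 CPM in TRβKO, 13.7 ± 0.694 CPM in WT and 6.60 ± 0.405 CPM in TRαKO, without overlap.

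TRαKO with T3 was below WT with T3 by log2 differences of −1.80 ± 0.28 at A (edgeR adjusted p = 6.92e-07), −1.05 ± 0.27 at B (edgeR adjusted p = 0.00482) and −1.66 ± 0.18 at C (edgeR adjusted p = 4.08e-11). All 3 of 3 thrb regions were called lower, against 7.3% of tested regions. Scaling by total reads in counted regions ended the call at B (−0.74, adjusted p = 0.0849).

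TRβKO with T3 was above TRαKO with T3 by 1.51 ± 0.28 at A (edgeR adjusted p = 3.42e-05), 1.56 ± 0.26 at B (edgeR adjusted p = 3.23e-06) and 1.35 ± 0.18 at C (edgeR adjusted p = 3.07e-08), and 3 of 3 thrb regions were called higher, against 6.25% of tested regions. TRβKO and WT with T3 did not differ past the threshold, with −0.29 at A (95% interval −0.83 to 0.24), 0.51 at B (−0.01 to 1.04) and −0.31 at C (−0.66 to 0.05) and edgeR adjusted p from 0.285 to 0.604. At B, where the groups did not overlap, DESeq2 called TRβKO higher (0.83, DESeq2 adjusted p = 0.0171). At C, where they did not overlap per kept tag either, the difference depended on the scaling. It was −0.20 with all tags, −0.05 with total region reads, −0.02 with TMM and 0.01 with DESeq2.

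Ratios between the thrb regions within a library do not depend on how libraries are scaled. Without T3 region A made up a mean of 39.8% to 42.5% of all thrb reads in each genotype. With T3 its share was 18.7% to 22.3%, while that of region C was 38.5% to 47.6% without and 50.3% to 58.0% with T3. The ratio of reads in A to reads in C was 0.684, 0.718 and 2.0 in untreated WT and 0.333, 0.475 and 0.352 in WT with T3.

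The same ratio was 0.842 to 1.46 without and 0.325 to 0.384 with T3 in TRαKO, and 0.745 to 1.10 without and 0.319 to 0.452 with T3 in TRβKO. In each genotype the untreated libraries thus lay wholly above those with T3. Over all 18 libraries the log2 ratio of A to C was lower with T3 (a difference of −1.39, exact permutation p = 0.00025, adjusted over 5 ratios 0.000625) and that of A to B was lower too (−1.70, exact permutation p = 0.00025, adjusted 0.000625). Tests of ratios that include B are no separate support, since B was found through peaks of libraries with T3 alone.

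The ratio of B to C did not move past the threshold with T3 over the genotypes together. In TRβKO it was 0.200, 0.191 and 0.333 without T3 and 0.553, 0.689 and 0.559 with T3, without overlap. In TRαKO the ranges overlapped, at 0.474 to 0.529 without and 0.430 to 0.590 with T3. In WT they overlapped as well, at 0.290, 0.308 and 1.06 without and 0.353, 0.337 and 0.330 with T3. Over all genotypes the log2 difference was 0.30 (exact permutation p = 0.305, adjusted 0.305), and without untreated WT replicate 3, the library with 17 reads in C, it was 0.50 (exact permutation p = 0.0100). Within 1 genotype an exact test of 3 against 3 cannot go below p = 0.1, and the difference between genotypes in this ratio was not tested.

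**Figure D4:**
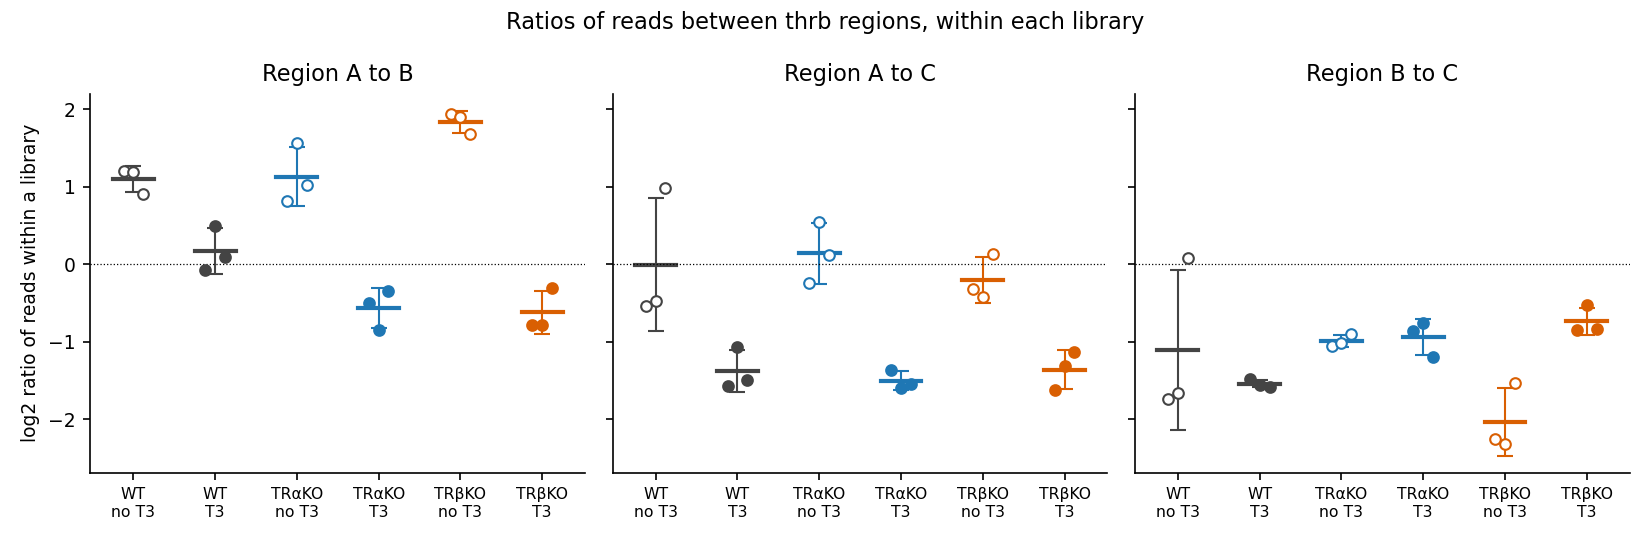
Log2 ratio of reads between pairs of thrb regions within each library (y axis), by genotype and treatment (x axis). Points are libraries, bars the mean ± SD of 3; A to B and A to C stand lower with T3 in each genotype, and B to C stands higher with T3 in TRβKO.

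The authors' peak lists, called in each library without a control, are not separate from the count table. The bounds of each counted thrb region match the start and end of peaks in these lists. Region B had no peak in any of the 9 untreated libraries and a peak in all 9 libraries with T3. Its bounds thus match peaks of libraries with T3 alone, and T3 was tested at B on a region found through those libraries. Region C had a peak in 0 of 3 WT, 1 of 3 TRαKO and 2 of 3 TRβKO libraries without T3 and in 9 of 9 with T3. Region A had a peak in 1 of 3 WT, 2 of 3 TRαKO and 3 of 3 TRβKO libraries without T3, and in 3, 2 and 3 of 3 with T3.

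Untreated WT, which lacked peaks at B and C, had the longest lists of the 6 groups, with 8466 to 17717 peaks per library against 666 to 6565 in the others. The authors' fold enrichment over the local background at C was 11.3 to 15.9 in WT, 9.84 to 12 in TRαKO and 12.2 to 14.5 in TRβKO with T3. At B it was 6.77 to 9.88, 5.76 to 8.64 and 10.7 to 12.8 in the same order. At A it was 8.22 to 11.3 in WT and 8.25 to 10.1 in TRβKO, but 4.68 and 5.30 in the 2 TRαKO libraries with a peak. Within the lists of libraries with T3, the peak at C stood between place 4 and place 35 by q-value.

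**Figure D5:**
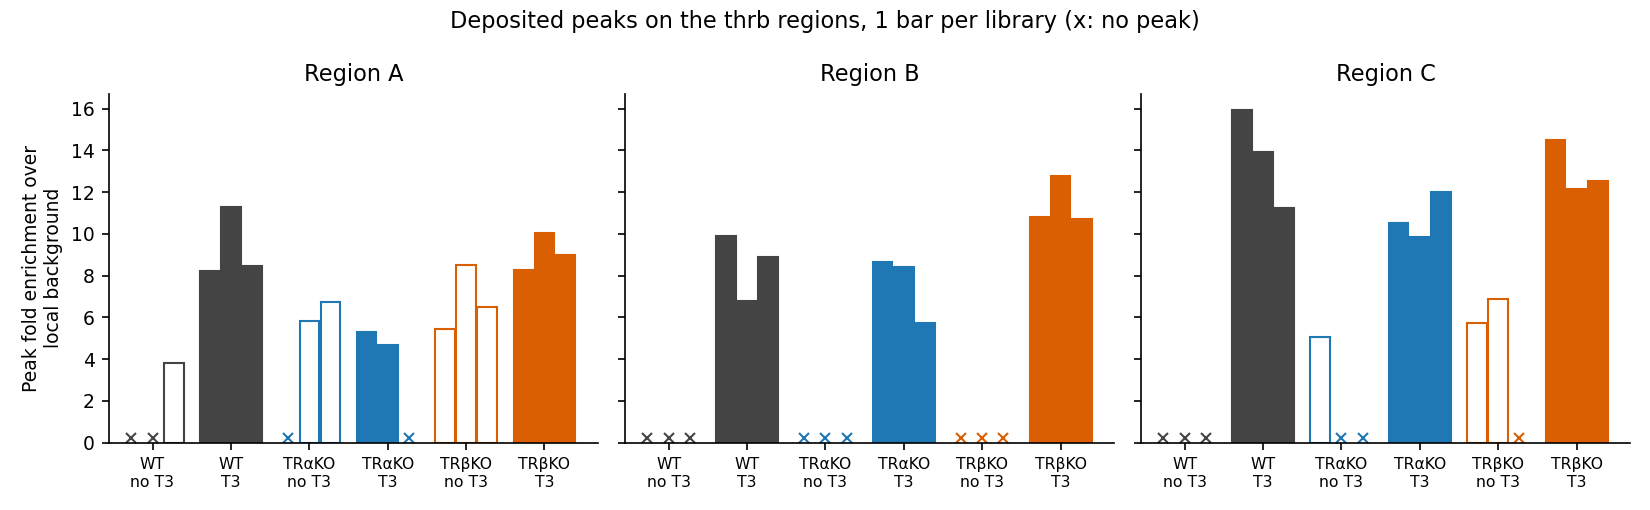
Fold enrichment of the deposited peaks on thrb regions A, B and C over the local background (y axis), 1 bar per library grouped by genotype and treatment (x axis; open bars without T3, filled bars with T3, x for no peak). Region B has bars only in the 9 libraries with T3, where they lie between 5.76 and 12.8.

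Elsewhere at the locus peaks were called in few libraries. Between A and C, 5 further peaks were called in 4 libraries, none of them overlapping one from another library. The highest of the 5, in a TRβKO library with T3, had a fold enrichment of 6.60 and a −log10 q of 7.01, above some of the peaks at A and B, such as the 5.76 and 6.25 of region B in TRαKO with T3 replicate 3. Within 500 kb of the 3 regions there were 26 further peaks in 11 libraries, the 5 included, and 8 of the 26 overlapped a peak of another library. In the same window the table counted 4 other regions, whose group means lay between 0.235 and 2.91 CPM. None of the 9 edgeR tests of T3 on those that passed the count filter was called (0 of 9), with adjusted p from 0.232 to 0.995. Over all tested regions 10.2% were called higher in WT, 8.6% in TRαKO and 9.49% in TRβKO. At such shares 9 tests are too few to set these regions apart from the rest.

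The strongest regions of thra and of thibz, a leucine zipper transcription factor gene induced by T3 in tadpoles, served for comparison with region C. The thra region was picked from 4 by its mean level over all 18 libraries, those with T3 included, so its choice is not separate from its level with T3. The thra region averaged 2.13 ± 0.538 CPM in untreated WT and 48.2 ± 1.41 CPM in WT with T3, and the single thibz region 2.71 ± 0.452 and 57.3 ± 3.74 CPM. Over the genotypes together region C gained somewhat less with T3 than either within the same libraries: the log2 ratio of C to thra changed by −0.61 (exact permutation p = 0.0178, adjusted over 5 ratios 0.0272) and that of C to thibz by −0.45 (exact permutation p = 0.0217, adjusted 0.0272). The mean log2 ratio of C to thra went from −0.02 to −0.26 in WT, −0.03 to −0.62 in TRαKO and 0.66 to −0.33 in TRβKO. In WT the ratios without T3 (0.5 to 1.52) spanned those with T3 (0.81 to 0.88). The exact permutation p of C to thra, adjusted over 5 ratios, was above 0.05 when any of 3 single libraries was left out (up to 0.0653). The adjusted p of C to thibz was above 0.05 for any of 4 (up to 0.0731).

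Among genes of TR signalling, regions rose at receptors, coregulators and response genes, and by the edgeR test with kept tags as library size 0 regions of the lists fell. DESeq2 called thrb region A lower in TRαKO, as given above, and scaling by total region reads gave 1 lower call in WT in the coregulator list and 1 in the response list. The lists were drawn up with results of these data known, so their counts beside the shares of all tested regions are no separate support. How many of the listed regions had peaks only with T3 was not counted. Regions of thra, thrb, dot1l and kdm6b stand in more than 1 list. Of 11 regions at 4 of 5 receptor and partner genes, 8 rose with T3 in WT, 7 in TRαKO and 8 in TRβKO, where 10.2%, 8.6% and 9.49% of all tested regions did. Without thrb the counts were 5 of 8 regions in each genotype, with median log2 fold changes of 3.80, 1.26 and 2.57 against 0.02, 0.46 and −0.16 over all tested regions. At rxrb, a retinoid X receptor and so a partner of TR, signal went from 1.27 ± 0.728 to 21.1 ± 5.80 CPM in WT, from 3.51 ± 0.530 to 6.53 ± 1.7 CPM in TRαKO and from 2.07 ± 0.387 to 10.8 ± 1.51 CPM in TRβKO.

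Of 17 regions at 10 of 21 coregulator genes, 9 rose in WT, 8 in TRαKO and 9 in TRβKO, beside the same 10.2%, 8.6% and 9.49% of all tested regions. The TRαKO count depended on the scaling, with 3 of 17 called under TMM. The strongest were at dot1l, a histone H3 methyltransferase, and kdm6b, a histone H3 demethylase. The dot1l region went from 1.15 ± 0.363 to 35.8 ± 2.71 CPM in WT (log2 fold change 4.93 ± 0.25, edgeR adjusted p = 6.77e-31), and the stronger kdm6b region from 1.64 ± 0.164 to 37.1 ± 5.20 CPM (4.49 ± 0.23, edgeR adjusted p = 7.96e-31). In TRαKO their log2 fold changes were 1.67 ± 0.23 and 1.22 ± 0.22, and in TRβKO 2.99 ± 0.25 and 2.46 ± 0.24. At crebbp, a histone acetyltransferase and coactivator, the values were 3.72 ± 0.37, 1.60 ± 0.39 and 2.21 ± 0.39 in WT, TRαKO and TRβKO.

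Of 11 genes of hormone transport and metabolism only slco2b1, an organic anion transporter gene, had counted regions. Its stronger region rose in all 3 genotypes, from 1.02 ± 0.209 to 8.63 ± 0.672 CPM in WT, and the other was called in TRαKO alone (1.63 ± 0.49, edgeR adjusted p = 0.0203); under TMM scaling 1 of the 2 regions was called in TRαKO. Of 23 regions at 11 of 21 direct response genes, 21 rose in WT, 19 in TRαKO and 21 in TRβKO, again beside 10.2%, 8.6% and 9.49% of all tested regions. Without thrb these were 18, 17 and 18 of 20, with median log2 fold changes of 3.51, 1.68 and 2.89. Region C's changes of 4.20, 1.54 and 2.2 thus lay above that median in WT and below it in both knockouts, and region B's 3.80, 1.60 and 3.56 above it in WT and TRβKO.

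The regions whose level followed region C most closely over the 18 libraries were sought among 3509 regions assigned to other genes with at least the median mean level. By Pearson's r of log2(CPM + 0.5) these were at npc1 (0.983), fam149a (0.983), LOC100496565 (0.981), gsdme (0.979) and ezh2 (0.976). The libraries fall into groups with and without T3, a contrast that every such r contains, and ranking by Spearman's rho kept 2 of these 5. The npc1 region, for example, went from 0.666 ± 0.274 to 17.3 ± 3.76 CPM in WT, from 1.37 ± 0.501 to 4.43 ± 1.10 CPM in TRαKO and from 2.07 ± 0.327 to 14.5 ± 1.47 CPM in TRβKO. Over the same libraries r with region C was 0.937 for region B and 0.895 for region A, and 156 and 379 of the 3509 regions lay closer to C than B and A did.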

How the data were processed

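The 3 members and the gene lists were chosen with earlier results of these data known. Per the submitters' processing notes, alignment by the authors used Bowtie2 2.3.4.1, peak calling MACS2 2.1.1.20160309 and counting DiffBind; the file headers name MACS 2.2.7.1. The genome build is not given in the sources used here. The deposited table holds the authors' raw read counts of 9867 regions in 18 libraries. The deposited peak lists, called per library with no control, 1 tag kept per position, a genome size of 2.7e+09 and a q-value limit of 0.05, give per the file headers a pileup signal, a fold enrichment (ratio to local background) and −log10 p and q. Groups follow the genotype and treatment fields of the labels.

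Tags left by the duplicate filter of MACS served as library size. Counts were fitted with edgeR 4.0.16 (R 4.3.3, limma 3.58.1) by the robust quasi-likelihood method, 6 group means over all 18 libraries. Of 9867 regions, 9342 passed filterByExpr, all 3 thrb regions among them. Tests were two-sided, p was adjusted by Benjamini-Hochberg across the 9342 regions, and adjusted p under 0.05 was called. SE is the absolute log2 fold change over the square root of F. Single values were tested by exact permutation of treatment within genotype, on log2(CPM + 0.5) or log2 ratios of reads + 0.5 (Python 3.11.15, numpy 2.4.6, pandas 2.3.3, scipy 1.17.1, matplotlib 3.10.9). Ratios printed for single libraries carry no pseudocount. The fit was tested on simulated data.

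A region was assigned to the gene it overlaps or else the nearest within 10 kb (UCB_Xtro_10.0 gene spans, used for names and neighbours; 4.69% of 9817 placed regions held a gene end against 1.85% to 2.54% after shifts of 100 or 200 kb). Named besides thrb were, per list, up to 4 regions of other genes with the highest mean level, the strongest thra and thibz regions, and the 5 regions most like region C. The variance between replicates, as chi-square per degree of freedom, was 1.92 to 2.17 times that of counting error alone, and p-values measure the spread between these libraries. Alternatives were TMM, total region reads, all tags and DESeq2 1.42.0 scaling, thinning, no count filter, a non-robust fit, only the compared libraries, a replicate block, other pseudocounts and leaving out each library.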

Additional observations from a re-analysis of the deposited data

Results flagged for a closer look

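At thrb the T3 effect differed between genotypes by the edgeR test of the difference itself in 6 of 9 tests, and the 3 libraries of a group are too few for a test of single outlying libraries. The log2 T3 effect was lower in TRαKO than in WT at A (−3.03), B (−2.20) and C (−2.67), against 5.18% of tested regions called lower. In TRβKO it was lower than in WT at A (−1.84) and C (−2.01), against 1.52% of tested regions. It was higher in TRβKO than in TRαKO at B (1.96), against 2.04% of tested regions called higher. Region B was found through peaks of libraries with T3 alone, so its T3 tests are not separate from how it was found. These comparisons share libraries. Depth and redundancy differ between the 6 groups, and their part in these differences was not tested. Under thinning to the shallowest library, which equalizes counting precision alone, all 6 differences stayed called.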

How the results depend on the processing

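Over 9 other settings the 36 edgeR results on thrb (25 of them called, 11 not) gave 324 values, of which 310 stayed on their side of the threshold, 7 lost the call, 7 gained it and 0 reversed a call. Among the 310, 3 uncalled estimates changed sign: TRβKO minus WT with T3 at A and C under DESeq2 (0.02 and 0.01) and the TRβKO minus WT difference in T3 effect at B with all tags (0.01). Of 270 values with a library left out, 263 stayed on their side and 7 lost the call. The T3 effects at B and C were called in every genotype under all of them, as was A in WT. At B this is no separate support, since B was found through peaks of libraries with T3 alone. DESeq2 called A lower with T3 in TRαKO (−0.68), B higher in TRβKO than in WT with T3 (0.83) and the TRβKO minus TRαKO difference in T3 effect at A (1.60) and C (1.07). TMM scaling called the last 2 as well (1.52 and 1.0), and total region reads that at A (1.24). Total region reads ended the calls at A with T3 in TRβKO (0.64) and at B in TRαKO against WT with T3 (−0.74). For untreated TRαKO minus WT, the call at B was lost with all tags (1.04), only the compared libraries (1.16), thinning (1.72) and the replicate block (1.16, adjusted p = 0.0515), and that at A with thinning (1.16). Leaving out libraries gave 1.06 to 1.46 at A, 0.94 to 1.51 at B and 0.80 to 1.22 at C there. The log2 ratio differences with a library left out were 0.20 to 0.50 for B to C, −0.77 to −0.50 for C to thra and −0.58 to −0.36 for C to thibz. Coregulator regions called in TRαKO numbered 3 under TMM and total region reads and 5 under DESeq2 and thinning, 5 to 6 with a library left out, against 8; transport regions 1 under each of those and 1 to 2 with a library left out, against 2. Replicate numbers do not pair the libraries (45 correlations of same-numbered deviations, −0.02 to 0.04), and the block changed no other call. Over all regions, counts of calls moved by over 1.5 times: with T3 in TRαKO 810 against 416 to 1014, untreated TRαKO minus WT 257 against 63 to 956, untreated TRβKO minus WT 369 against 92 to 909, the untreated knockouts 58 against 23 to 87, TRβKO minus WT with T3 395 against 184 to 399, and the T3 effect differences 588 against 293 to 700, 167 against 71 to 168 and 326 against 125 to 526 (TRαKO minus WT, TRβKO minus WT, TRβKO minus TRαKO). The share of called regions that were higher moved by over 10 percentage points with the scaling in all 12 comparisons, for T3 from 90.4% to as low as 58.7% in WT, 99.1% to 73.0% in TRαKO and 80.7% to 53.2% in TRβKO. For the genotype differences it was 59.9% (39.6% to 88.7%), 52.3% (30.1% to 74.0%) and 65.5% (36.8% to 61.4%) untreated, 12.9% (11.1% to 36.6%), 13.7% (17.8% to 45.4%) and 60.2% (48.5% to 82.1%) with T3, and 17.7% (5.71% to 40.7%), 15.0% (14.3% to 37.0%) and 58.6% (50.2% to 91.6%) for the T3 effects, in the order TRαKO minus WT, TRβKO minus WT, TRβKO minus TRαKO. With the scaling the median over all regions with T3 in TRαKO went from 0.46 to as low as −0.09. Reads of 8 to 18 at untreated B limit its precision.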
